A study of Mus musculus with 157 samples.

Results

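The transcription factors Prdm1, Irf4, Irf8, Pax5, Bcl6, Bach2, Ebf1, Pou2af1, Spib and Ikzf1 were followed along polysome gradients of activated mouse B cells. They were taken as every line of the deposited count table whose gene name equalled 1 of these 10 names, which gave 11 of 19600 lines. The additional line also carried the name Ebf1, was a pseudogene with 306 counts in all, and was kept apart from the protein-coding Ebf1. Splenic B cells of C57BL/6Babr mice aged 8 to 12 weeks were activated in culture with lipopolysaccharide (LPS, 10 µg/ml). Cytoplasmic extracts were separated on sucrose gradients, and the mRNA 3′ ends of fractions 4 to 16 were sequenced one fraction at a time. The first group received LPS alone for 48 h (LPS). The second received LPS for 48 h and then etoposide, a topoisomerase II poison that breaks DNA, at 20 µM for 4 h (LPS+ET). The third received LPS for 47 h, KU55933 (10 µM, 1 h), which inhibits ATM kinase, and then etoposide (20 µM, 4 h) (LPS+ET+KU). By these times both etoposide-treated groups were in culture longer than the LPS group, so culture time and etoposide cannot be told apart. All cells, those of the LPS group included, were treated with cycloheximide at 100 µg/ml for 3 min to hold ribosomes on the mRNA. No genotype is given in the labels, and the inhibitor without etoposide was not analysed here. Each group held 4 gradients, which the study's methods call biological replicates, and each was named by a code in the column headers, LUL15, LUL16, LUL17 or LUL18, which the headers do not explain and which is called a pool here. Each pool carried 1 gradient of each group.

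Pax5 and Ebf1 establish and maintain B cell identity, and Ikzf1 (Ikaros) acts with them from the earliest lymphoid stages. Pou2af1 (OBF-1), Spib and Irf8 serve mature and germinal centre B cells, while Bach2 and Bcl6 are repressors that hold back plasma cell differentiation. Irf4 and Prdm1 (Blimp-1) drive that differentiation, with Prdm1 repressing Pax5 and other B cell genes. In a polysome gradient an mRNA carrying more ribosomes travels further, so that its place among the fractions reports how heavily it is loaded.

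Levels rested on 3′ ends counted at chosen poly(A) sites, and these sites show which mRNA ends stand behind each value. The 30 bases ending at the counted position are given for 6 members whose site lay in an annotated exon with a poly(A) signal in this window, with the signal AATAAA or ATTAAA in capitals. All are in an untranslated last exon on build GRCm38 and are written 5′ to 3′ on the mRNA strand, from GENCODE M21 transcripts. The lines are Pou2af1 at chr9:51240051-51240080 (plus strand), Spib at chr7:44526032-44526061 (minus strand), Irf8 at chr8:120756665-120756694 (plus strand), Bcl6 at chr16:23965052-23965081 (minus strand), Irf4 at chr13:30766947-30766976 (plus strand) and Prdm1 at chr10:44439235-44439264 (minus strand).
Pou2af1: aacattttcAATAAAgattggttagatgac
Spib: tgtactaAATAAAattatttctcatcacca
Irf8: tttATTAAAaaaagttgctctttcacaaaa
Bcl6: caaaacataagAATAAAacattgaaaagtc
Irf4: aatatttgataAATAAAggatttctagaaa
Prdm1: aaagcaataATTAAAgaagtttacaatgac
A single site held all counts of Pou2af1, Spib and Bcl6, 94.2% of those of Irf4 and 89.1% of those of Irf8. Prdm1 was divided between this site, with 46.5% of its counts, and one 3 bases from its annotated end, with 43.5%, while the site shown lies 432 bases from the nearest annotated end. The annotated gene Gm20388 also covers both Irf8 sites. Of the last 30 bases of 58524 annotated protein-coding transcripts, searched on the mRNA strand only, 44.3% held AATAAA or ATTAAA, against 2.22% of the 30 bases ending 200 bases earlier. The letters may overlap, so a window may hold both.

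The remaining 4 members had their leading site outside the annotated gene (Bach2) or without either signal (Ikzf1, Ebf1 and Pax5). From the nearest annotated transcript end the leading site lay 5 bases away for Ikzf1, 883 for Ebf1 and 2338 for Pax5. Bach2, a basic leucine zipper repressor, had 82.5% of its counts at position 32588813 of chromosome 4, 2705 bases past its annotated end. Its annotated end, chr4:32586075-32586104 on the plus strand, held 8.65% of the counts. The leading sites of Ikzf1 (chr11:11772078-11772107, 54.7% of its counts), Ebf1 (chr11:45006383-45006412, 29.5%) and Pax5 (chr4:44528807-44528836 on the minus strand, 52.6%) carried neither signal, and they are shown for that contrast.
Bach2 annotated end: ctgttgatgaAATAAAggcctatcattcta
Ikzf1: ctttagctggtaaaggagggttttgcatga
Ebf1: tccatataaataatgtatttatctttggaa
Pax5: actttgtgataaaaagatattttcatacta
For Pax5, 21.97% of the counts lay at the largest intronic site and 2.89 to 6.36% at each of 4 others. For Ebf1, 15.1% lay at a site inside an intron and 1.51% at another. A further 8.77% lay in an untranslated exon 25437 bases from the nearest annotated transcript end. The pseudogene line counted under the same name lay within the annotated Ebf1 gene.

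Library totals ran from 14724 to 4170688 counts (median 811932), and gradient totals from 6404957 to 21449781. The shallowest gradient was LPS+ET of LUL16, with 4 libraries under 100000 counts against at most 2 in any other gradient, and with 30.4% of its counts in heavy polysomes. Monosome fractions gave 13.7 to 17.6% of the counts in LPS gradients, 10.9 to 29% in LPS+ET and 28.5 to 34% with the inhibitor. Equal RNA concentrations entered each library, so that totals do not measure the mRNA of a fraction. Of the B cell markers 9 of 9 were detected. They summed to 7627 to 10586 counts per 1000000 counts of the gradient (CPM) in LPS and 7811 to 10332 CPM after etoposide. With the inhibitor they summed to 8033 to 11921 CPM. Most of this was Cd74, with means of 5976, 6891 and 6724 CPM in LPS, LPS+ET and LPS+ET+KU. The lowest, Ms4a1, averaged 56.3, 34.5 and 19.6 CPM. After etoposide 3 of the 9 were called lower and 0 higher, where 4.81% of all genes were called lower. T cell markers, 9 of 11 listed, summed to 131 to 160 CPM in LPS, 111 to 299.6 CPM after etoposide and 85 to 383 CPM with the inhibitor. Most of this was the kinase Lck, while the T cell receptor gene Cd3e stayed at or below 0.435 CPM in every gradient. Myeloid markers, 10 of 11, summed to 36.5 to 90.7 CPM, 55.4 to 176 CPM and 64.3 to 135 CPM in the same order. NK cell markers (4 of 6) stayed at or below 1.96 CPM and erythroid markers (4 of 9) between 23.2 and 177 CPM. Nearly all of the erythroid sum was Hbb-b2, with means of 61.1, 52.7 and 72.2 CPM in the same order. The part of these other cells in the results below was not tested.

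The ribosome-associated level, the counts of fractions 4 to 16 summed per gradient and scaled to CPM, was compared after DNA damage. This level follows the total amount of an mRNA as well as its association with ribosomes. Total mRNA was not analysed here, so these cannot be told apart. The sum also gives more weight to fractions with deeper libraries, and the depth of the classes differed between groups, as given above. A fit with equal weight per fraction was among the alternatives. Ebf1, Ikzf1 and Irf8 fell 3.99-fold, 5.13-fold and 3.97-fold after etoposide, Pou2af1 was lower and Spib higher without passing the threshold of the unpaired test, and Bach2, Bcl6, Irf4 and Prdm1 showed no difference that passed it. Values are given for LUL15, LUL16, LUL17 and LUL18 in this order throughout. Changes are log2 fold changes ± SE from edgeR's two-sided quasi-likelihood test on all 12 gradients, adjusted over all genes by the Benjamini-Hochberg method and called below 0.01. The test called 3 of the 10 members, all lower, where it called 12.7% of the 12755 genes tested and 4.81% of them lower. In bulk samples fewer cells of a type and less RNA per cell cannot be told apart.

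Ikzf1, a zinc finger factor, stood at 149, 129, 151 and 149 CPM in the LPS gradients. In LPS+ET it stood at 35.8, 27.8, 31.7 and 26.9 CPM, and in LPS+ET+KU at 26.4, 37.6, 29.6 and 25.6 CPM. Every LPS gradient lay above every etoposide-treated gradient, and the gradients with and without the inhibitor overlapped. The means were 145 ± 10.2 (SD, n = 4), 30.5 ± 4.07 and 29.8 ± 5.47 CPM. Ikzf1 fell by 2.36 ± 0.17 on the log2 scale in LPS+ET against LPS, which is 5.13-fold (edgeR adjusted p = 1.1e-06).

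Ebf1, the early B cell factor that acts upstream of and together with Pax5, stood at 54.0, 47.4, 83.1 and 79.6 CPM in LPS. It stood at 19.9, 16.4, 18.4 and 16.9 CPM in LPS+ET and at 17.6, 24.8, 22.3 and 17.96 CPM in LPS+ET+KU. The groups with etoposide again lay wholly below the LPS gradients and overlapped each other, and the spread was widest in LPS (66.0 ± 17.9 CPM against 17.9 ± 1.58 and 20.7 ± 3.48 CPM). Ebf1 fell by 2.00 ± 0.21, or 3.99-fold (edgeR adjusted p = 2.4e-05). The pseudogene line of the same name had 2.91, 1.12 and 1.45 CPM on average in the 3 groups.

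Irf8, an interferon regulatory factor that serves B cell development and the germinal centre, stood at 585, 590.2, 471 and 492 CPM in LPS. The LPS+ET gradients had 175, 191, 107 and 113 CPM and the LPS+ET+KU gradients 169, 299, 129 and 129 CPM. The LPS gradients were apart from both other groups, which overlapped, and LUL16 was the highest gradient in each group. Irf8 fell by 1.99 ± 0.28, or 3.97-fold (edgeR adjusted p = 0.00025).

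Pou2af1, the coactivator of the octamer-binding factors, had 1534, 1445, 1313 and 1091 CPM in LPS, 873, 410.5, 985 and 614 CPM in LPS+ET, and 549, 839.7, 708 and 482 CPM in LPS+ET+KU. All LPS gradients were higher than all others, although the nearest LPS and LPS+ET gradients (1091 and 985 CPM) were close. The change was -1.02 ± 0.26 with an edgeR adjusted p of 0.012, and with the pool as a block -1.04 ± 0.23 with an adjusted p of 0.0026. Spib, an ETS factor of B cells, was the only member higher after etoposide in all 4 pools with no overlap between groups. It had 201, 172, 117 and 145 CPM in LPS, 359, 221, 256 and 255 CPM in LPS+ET, and 319, 282, 268 and 239 CPM in LPS+ET+KU. Its change of 0.66 ± 0.18 had an edgeR adjusted p of 0.02, and 0.67 ± 0.15 with an adjusted p of 0.0026 under the block. The pools paired the gradients, and the block raised the number of members called from 3 to 5, and that of all genes from 12.7% to 26.7%.

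**Figure D1:**
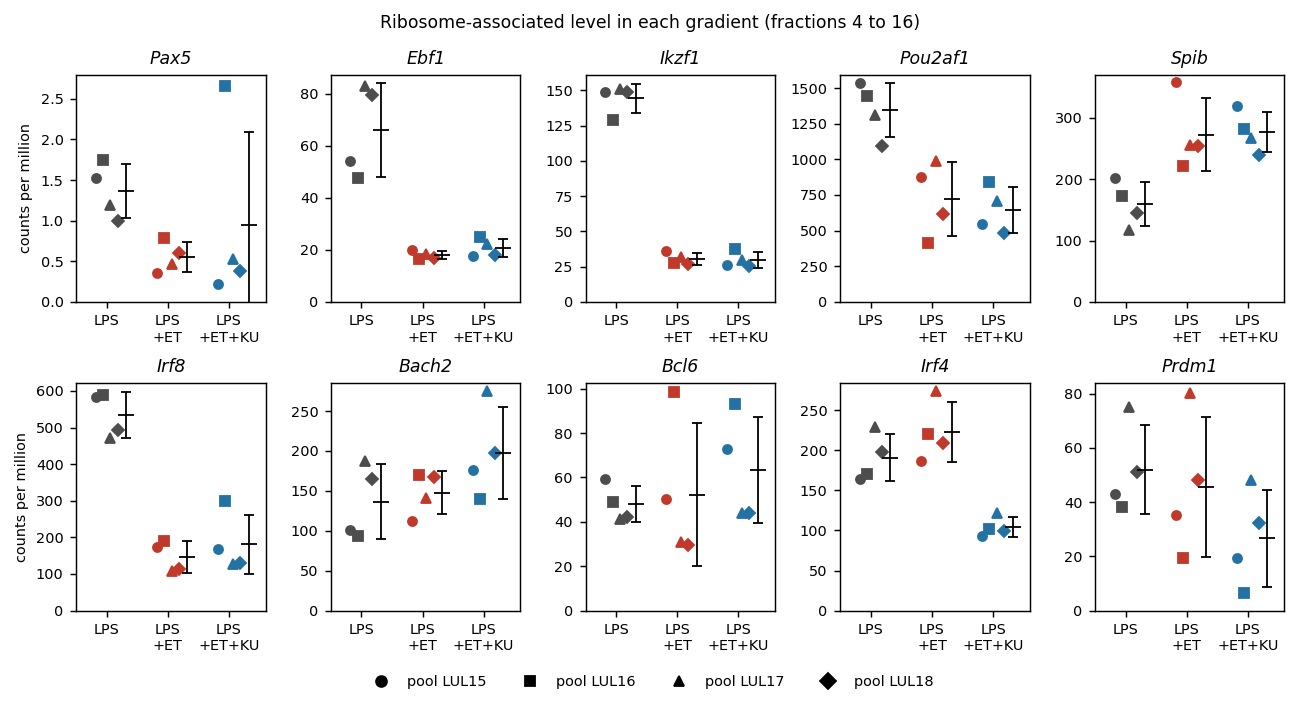
Ribosome-associated level of each member in CPM (fractions 4 to 16 summed per gradient, linear axis) in the 4 gradients of LPS, LPS+ET and LPS+ET+KU, with 1 point per gradient and the group mean with SD. Ebf1, Ikzf1 and Irf8 lie lower in both etoposide-treated groups than in every LPS gradient, Spib lies higher, and Irf4 is lower only in the 4 LPS+ET+KU gradients.

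Pax5, the paired box factor that keeps B cells committed, was close to the floor of the assay with 173 counts over all 12 gradients. Its counts were 21, 34, 11 and 13 in LPS, 4, 5, 6 and 7 in LPS+ET, and 2, 57, 8 and 5 in LPS+ET+KU, which gave 1.36 ± 0.336, 0.548 ± 0.185 and 0.946 ± 1.15 CPM. Every LPS gradient was above every LPS+ET gradient in CPM, and the LUL16 gradient of LPS+ET+KU stood apart at 2.66 CPM. The change of -1.46 ± 0.67 in LPS+ET against LPS had an edgeR adjusted p of 0.14, so a difference was not detectable at this depth. Without the LUL16 gradient of LPS+ET+KU, Pax5 was lower in LPS+ET+KU than in LPS by 1.90 on the log2 scale (edgeR adjusted p = 0.008), against -0.56 ± 0.61 (adjusted p = 0.54) with it.

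The repressors were spread widely within the groups. Bach2 had 100.5, 93.2, 188 and 165.5 CPM in LPS, 112, 169.6, 141 and 167 CPM in LPS+ET, and 176.5, 139.7, 276 and 198 CPM in LPS+ET+KU. Bcl6, which directs the germinal centre programme, had 59.3, 49.1, 41.3 and 42.3 CPM in LPS, 50.3, 98.5, 30.8 and 29.4 CPM in LPS+ET, and 73.0, 93.0, 43.9 and 43.9 CPM in LPS+ET+KU. The groups overlapped in both genes and in every comparison. For Bach2 the change was 0.01 ± 0.29 after etoposide and 0.42 ± 0.29 with the inhibitor against LPS+ET (edgeR adjusted p = 0.99 and 0.53), and for Bcl6 0.01 ± 0.36 and 0.27 ± 0.36 (adjusted p = 0.99 and 0.77). The LUL16 gradient had the highest Bcl6 level in both etoposide-treated groups.

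LPS+ET+KU was compared with LPS+ET to find which levels after etoposide differed when the ATM inhibitor had been added. The LPS+ET gradients were shared between this comparison and the previous one. The inhibitor without etoposide was not analysed here, so its own effect and a changed response to etoposide cannot be told apart. Irf4 was the member with the clearest difference. This interferon regulatory factor, which rises with B cell activation and at high levels drives plasma cell formation, had 165, 171, 229 and 198 CPM in LPS and 187, 220.0, 275 and 209 CPM in LPS+ET. It had 92.8, 102, 122 and 99.6 CPM in LPS+ET+KU. All 4 gradients with the inhibitor lay below every gradient without it, while the LPS and LPS+ET gradients overlapped. The means were 191 ± 29.4, 223 ± 37.4 and 104.1 ± 12.6 CPM. The change in LPS+ET+KU against LPS+ET was -1.10 ± 0.19, lower in 4 of 4 pools, with an edgeR adjusted p of 0.013 that missed the threshold, and with the pool as a block -1.09 ± 0.12 with an adjusted p of 8.4e-05. DESeq2 gave an adjusted p of 4.5e-06. In LPS+ET against LPS it was 0.11 ± 0.19 (adjusted p = 0.73).

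Prdm1, the repressor that sets the plasma cell programme, had 42.9, 38.3, 75.3 and 51.3 CPM in LPS and 35.2, 19.4, 80.2 and 48.3 CPM in LPS+ET. With the inhibitor it had 19.5, 6.5, 48.3 and 32.2 CPM. The groups overlapped, with LUL17 highest and LUL16 lowest in each, yet within every pool the LPS+ET+KU gradient was the lowest of the 3. Against LPS+ET the change was -0.77 ± 0.52 (edgeR adjusted p = 0.52), and with the block -0.87 ± 0.25 (adjusted p = 0.031). Against LPS it was -1.05 ± 0.52 (adjusted p = 0.17), and with the block -1.34 ± 0.25 (adjusted p = 0.00089), which passed.

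No member was called in LPS+ET+KU against LPS+ET, where 0.455% of the genes tested were, and 1 of 10 members (Irf4) had an unadjusted p under 0.05, as had 2031 of the 12755 genes. With the block 1 of 10 was called, again Irf4, against 6.36% of all genes. For Ebf1, Ikzf1 and Irf8 the changes with the inhibitor were 0.21 ± 0.21, -0.03 ± 0.16 and 0.31 ± 0.27, for Pou2af1 -0.15 ± 0.26, for Spib 0.03 ± 0.18 and for Pax5 0.90 ± 0.67 (edgeR adjusted p from 0.57 to 0.96 over these 6). A p that misses the threshold does not show that these levels were equal.

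LPS+ET+KU was also set against LPS, with both groups shared with the comparisons above. This test called 5 of 10 members, all lower, where it called 10.7% of all genes and 4.42% of them lower. Ebf1 fell by 1.78 ± 0.21 (edgeR adjusted p = 9.6e-05), Ikzf1 by 2.39 ± 0.17 (adjusted p = 1.5e-06) and Irf8 by 1.68 ± 0.28 (adjusted p = 0.0011). Pou2af1 fell by 1.17 ± 0.26 (adjusted p = 0.0064) and Irf4 by 0.98 ± 0.19 (adjusted p = 0.0032). With each fraction given equal weight, neither the Pou2af1 nor the Irf4 call remained. The Pou2af1 call was lost without each LPS gradient in turn and without the LUL15, LUL17 or LUL18 gradient of LPS+ET+KU, with changes from -1.26 to -1.07, and the Irf4 call without LPS of LUL17 or LUL18 and without LPS+ET+KU of LUL15 or LUL18, with changes from -0.99 to -0.89. Spib was higher by 0.68 ± 0.18 (adjusted p = 0.017), and by 0.70 under the block (adjusted p = 0.0019). With the block 7 of 10 members were called, Spib and Prdm1 in addition, against 28.1% of all genes.

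Among the 9 members averaging at least 100 counts in a gradient, which leaves out Pax5, the groups did not overlap for 5 in LPS+ET against LPS (Ebf1, Ikzf1, Pou2af1, Spib and Irf8; 26% of all such genes). They did not overlap for 1 in LPS+ET+KU against LPS+ET (Irf4; 8.57%), and for 6 in LPS+ET+KU against LPS (Irf4 in addition; 27.6%). The median log2 change of the 10 members was -0.65, 0.12 and -1.02 in the 3 comparisons, and that of all genes tested 0.03, 0.04 and 0.09.

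**Figure D2:**
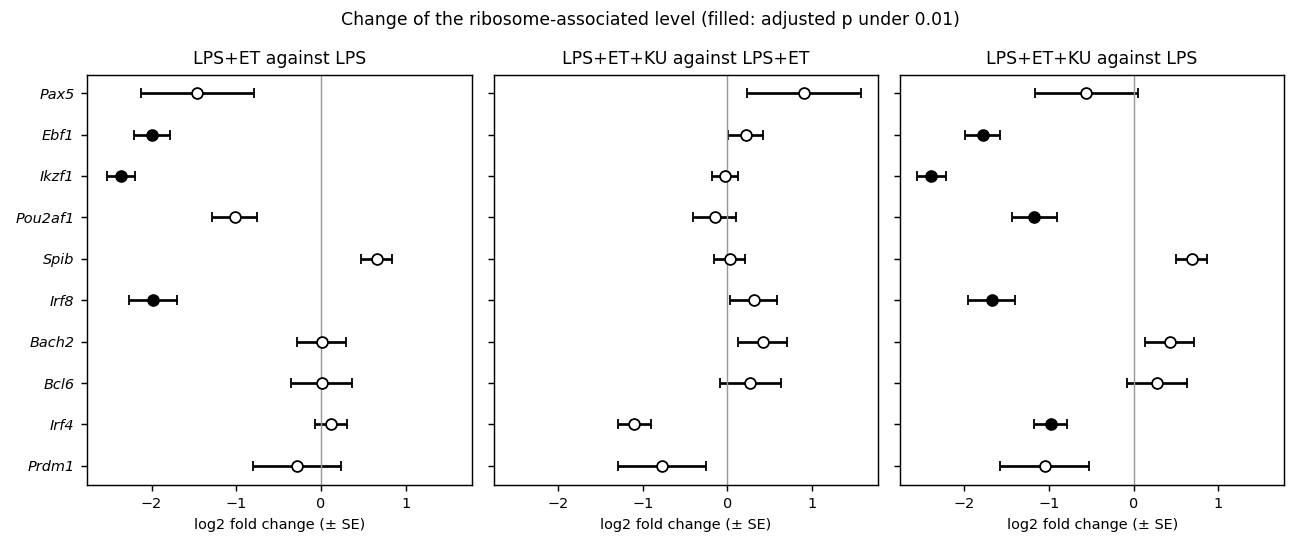
Log2 fold changes of the ribosome-associated level with SE for the 10 members in the 3 comparisons (LPS+ET against LPS, LPS+ET+KU against LPS+ET, LPS+ET+KU against LPS), where filled points passed an edgeR adjusted p of 0.01. Ebf1, Ikzf1 and Irf8 lie between -2.39 and -1.68 in both comparisons against LPS and near 0 between the 2 etoposide-treated groups, where Irf4 lies at -1.10.

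Monosomes (fractions 4 to 7), light polysomes (8 to 10) and heavy polysomes (11 to 16) were then compared separately, to see in which class the levels differed. In LPS+ET against LPS, 2 of 9 members tested were called in monosomes (9.52% of all genes, 3.08% lower), 4 of 9 in light polysomes (10.6%, 4.07% lower) and 3 of 10 in heavy polysomes (9.69%, 3.55% lower), all lower. Ikzf1 and Irf8 were called in all 3 classes, Ebf1 in both polysome classes and Pou2af1 in light polysomes.

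Ikzf1 fell by 1.36 ± 0.22 in monosomes, 1.91 ± 0.20 in light and 2.53 ± 0.22 in heavy polysomes (edgeR adjusted p = 0.00059, 1.9e-05 and 3.2e-06). Irf8 fell by 1.57 ± 0.21, 1.85 ± 0.32 and 2.02 ± 0.36 (adjusted p = 0.00014, 0.00097 and 0.0014). Whether these changes differed between classes was examined by the test of the distribution over fractions given further on. Ebf1 fell by 1.72 ± 0.22 in light and 2.27 ± 0.28 in heavy polysomes (adjusted p = 0.00011 and 6.9e-05), while its monosome change was -0.54 ± 0.30 (adjusted p = 0.24). In heavy polysomes Ebf1 had 60.1, 53.4, 112 and 97.0 CPM in LPS against 22.6, 18.5, 14.4 and 15.7 CPM in LPS+ET, without overlap. In monosomes it had 32.3, 34.03, 34.9 and 38.1 CPM against 17.3, 16.2, 35.1 and 23.03 CPM, with overlap through LUL17 alone. Pou2af1 fell by 1.14 ± 0.26 in light polysomes (adjusted p = 0.0071), a call lost when any of the 8 gradients compared other than LPS of LUL18 was left out, with changes from -1.25 to -0.98.

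The pool as a block raised the members called to 6 of 9 in monosomes (24.6% of all genes), 5 of 9 in light polysomes (25%) and 4 of 10 in heavy polysomes (20.6%). In monosomes it added Pou2af1 (-0.54 ± 0.13, adjusted p = 0.0032), Spib (0.49 ± 0.13, 0.0052), Bach2 (0.82 ± 0.16, 0.00035) and Prdm1 (-0.89 ± 0.21, 0.0023). In light polysomes it added Spib (0.56 ± 0.12, adjusted p = 0.0017), and in heavy polysomes Pou2af1 (adjusted p = 0.0048). Without the block the monosome changes of Bach2 and Prdm1 were 0.91 ± 0.37 and -0.79 ± 0.45 (adjusted p = 0.10 and 0.25).

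Bach2 had 197, 214, 283 and 296 CPM in monosomes of LPS and 352, 249, 526 and 648 CPM in those of LPS+ET, where each pool was higher after etoposide although the groups overlapped. In heavy polysomes it had 78.9, 68.8, 181 and 131 CPM in LPS and 60.0, 103, 61.3 and 63.2 CPM in LPS+ET. There the change was -0.74 ± 0.31 with an edgeR adjusted p of 0.11, and LUL16 went the other way.

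Against LPS+ET the lower Irf4 level with the inhibitor appeared in every class. Irf4 had 134, 179, 134 and 125 CPM in monosomes of LPS+ET and 66.6, 60.5, 69.8 and 67.8 CPM in those of LPS+ET+KU. In heavy polysomes it had 219, 365, 297 and 243 CPM against 119, 152, 156 and 119.5 CPM, and the groups overlapped in neither class. The changes were -1.17 ± 0.17 in monosomes, -1.06 ± 0.25 in light and -1.14 ± 0.25 in heavy polysomes (edgeR adjusted p = 0.0049, 0.054 and 0.031). The monosome call was the only one among the members (1 of 9; 0.213% of all genes), and it was lost when any of the 8 gradients compared other than LPS+ET of LUL16 was left out and when these 8 alone were fitted. No member passed in light polysomes (0 of 9; 0.292%) or heavy polysomes (0 of 10; 0.572%), where the block called Irf4 in both (adjusted p = 0.0002 and 0.0012) and Prdm1 in light polysomes (-1.05 ± 0.24, adjusted p = 0.0091). Of all genes the block called 5.62% in monosomes, 5.35% in light and 3.27% in heavy polysomes.

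**Figure D3:**
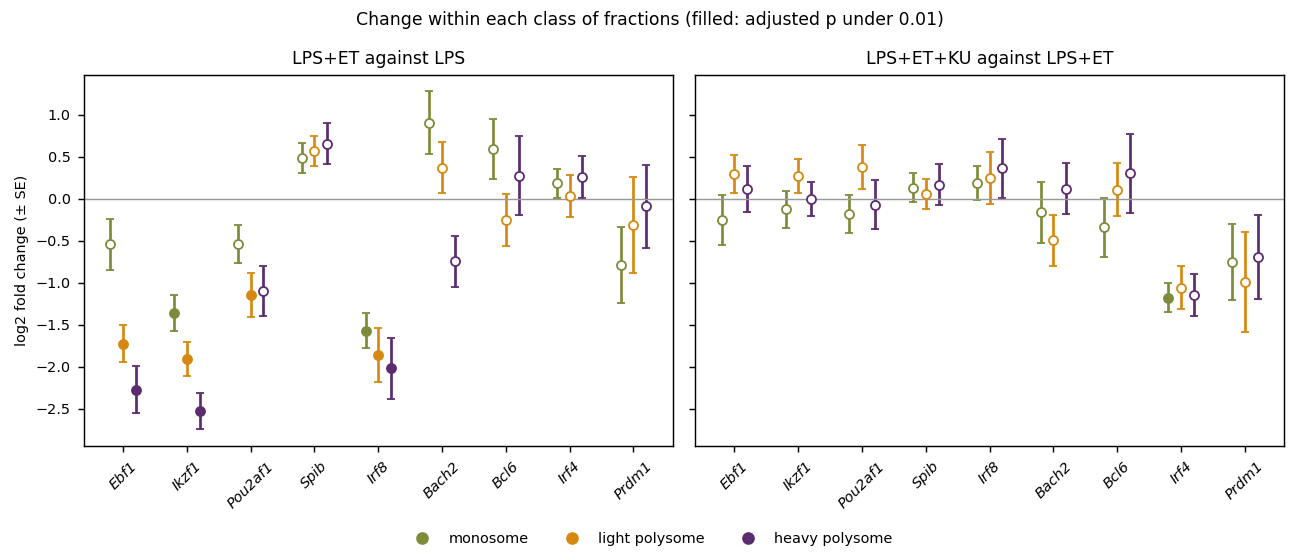
Log2 fold changes with SE of each member except Pax5 in monosomes, light polysomes and heavy polysomes for LPS+ET against LPS and for LPS+ET+KU against LPS+ET, where filled points passed an edgeR adjusted p of 0.01. Ikzf1 and Irf8 are lower after etoposide in all 3 classes, and Irf4 is lower with the inhibitor in all 3 classes, at -1.17, -1.06 and -1.14.

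The place of each mRNA along the gradient was measured in 2 ways. The first set heavy polysomes against monosomes of the same gradient, so that a positive log2 value means that an mRNA lay further towards heavy polysomes than the typical gene. The second was the share of an mRNA's CPM, scaled fraction by fraction, that lay in fractions 11 to 16. Over 8000 genes the LPS gradients had a median heavy share of 55.2%, the LPS+ET gradients of 53.9% and the LPS+ET+KU gradients of 54.7%.

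In LPS gradients 5 of 9 members were called in the first comparison, where 59.4% of all genes were, so that this count is no more than the background. Ikzf1 (1.61 ± 0.13, edgeR adjusted p = 1.7e-12) and Pou2af1 (1.55 ± 0.13, 3.1e-12) lay furthest towards heavy polysomes. Their heavy shares were 72.9, 71.3, 73.8 and 77.4% and 68.9, 68.2, 73.6 and 74.4%, and 89.6% and 85.6% of the 8000 genes had a lower mean share. Irf8 lay slightly towards heavy polysomes (0.37 ± 0.12, adjusted p = 0.0078, lost without any 1 of the LPS gradients). Its heavy shares of 62.3, 63.2, 64.0 and 62.4% differed by less than 2 percentage points.

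Bach2 was the member furthest towards monosomes (-1.93 ± 0.13, edgeR adjusted p = 1.3e-14), followed by Prdm1 (-0.59 ± 0.13, 0.00028). All Bach2 values rest mostly on the site past its annotated end, with 82.5% of its counts. Whether that site belongs to Bach2 mRNA was not tested. Prdm1 heavy shares were 49.3, 53.9, 49.2 and 45.8%. Spib (56.5, 56.0, 54.9 and 55.1%), Irf4 (57.8, 59.3, 57.5 and 54.9%) and Bcl6 (59.7, 59.5, 59.1 and 58.2%) lay near the typical gene, and their tests did not pass. Ebf1 was more variable at 52.4, 56.1, 58.0 and 42.3%.

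In LPS+ET 3 of 9 members were called (40.3% of all genes): Pou2af1 towards heavy polysomes (1.12 ± 0.23, edgeR adjusted p = 0.0006), Bach2 (-3.28 ± 0.33, 3.2e-07) and Ebf1 (-1.03 ± 0.30, 0.0082) towards monosomes. The Ebf1 call was lost without the gradients of LUL15, LUL17 or LUL18, with changes from -1.33 to -0.64, and also without the gradient term (-1.07), with DESeq2 (-0.99) and without the low-count filter (-0.74). The Pou2af1 call was lost without the gradient of LUL15 (0.97). With the inhibitor 6 of 9 were called (50.2%). Pou2af1 (1.19 ± 0.15, adjusted p = 1.4e-06), Ikzf1 (0.68 ± 0.18, 0.0025), Spib (0.62 ± 0.15, 0.0017) and Bcl6 (0.60 ± 0.18, 0.0066) lay towards heavy polysomes, and Bach2 (-3.01 ± 0.22, 2.1e-10) and Ebf1 (-0.75 ± 0.20, 0.003) towards monosomes. Without the LUL15 or the LUL17 gradient of LPS+ET+KU, 2 of these 6 calls, Pou2af1 and Bach2, remained. Bcl6 lost its call without any 1 of the 4.

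Bach2 peaked in fraction 4, at the top of the monosome fractions, in all 3 groups, with 35.4 ± 15.0%, 47.8 ± 20.6% and 41.7 ± 15.5% of its level (SD, n = 4) in LPS, LPS+ET and LPS+ET+KU. The share in fraction 4 was 21.7, 28.8, 56.3 and 34.8% in LPS, 35.2, 25.5, 65.7 and 65.0% in LPS+ET, and 40.8, 20.7, 57.0 and 48.4% in LPS+ET+KU. It was highest in LUL17 and lowest in LUL15 or LUL16 of each group. Fraction 4 libraries were shallow in LPS and LPS+ET, with 42937, 419646, 17629 and 14724 counts in LPS and 218780, 181532, 32104 and 74715 in LPS+ET. Bach2 itself was behind these shares with 16, 205, 59 and 17 counts in LPS, 207, 130, 138 and 337 in LPS+ET, and 452, 499, 1578 and 674 in LPS+ET+KU. The mitochondrial ribosomal RNA mt-Rnr1, which is not translated on cytoplasmic ribosomes, had 44.6 to 68.3% of its level in fraction 4 over the 12 gradients. What of the Bach2 signal in this fraction came from RNA free of cytoplasmic ribosomes was not tested.

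Heavy shares of Bach2 were 29.05, 28.4, 23.6 and 24.6% in LPS, 29.5, 40.1, 7.9 and 8.0% in LPS+ET, and 29.7, 41.8, 12.3 and 15.9% in LPS+ET+KU. The LPS gradients were close to each other, whereas both etoposide-treated groups were divided, with LUL17 and LUL18 below all LPS gradients and LUL15 and LUL16 above them. These shares rest on the scaling of each fraction to CPM, which gives the shallow fraction 4 libraries full weight. From counts as deposited, in which deeper libraries weigh more, the heavy shares were 43.4, 38.6, 53.5 and 49.3% in the LPS gradients, 32.4, 18.4, 29.7 and 24.5% after etoposide, and 20.4, 24.1, 16.9 and 20.3% when the inhibitor had been added. On this scale both etoposide-treated groups lay below all LPS gradients and overlapped each other. Heavy libraries held 30.4 to 68.2% of all counts of a gradient, so that these shares also move with library size. The logit differed by -0.90 ± 0.31 in LPS+ET against LPS (unadjusted p = 0.0099, limma adjusted p = 1.00). Its mean heavy share was lower than that of all but 8.79% of genes in LPS, 4.33% after etoposide and 6.73% when the inhibitor had been added.

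**Figure D4:**
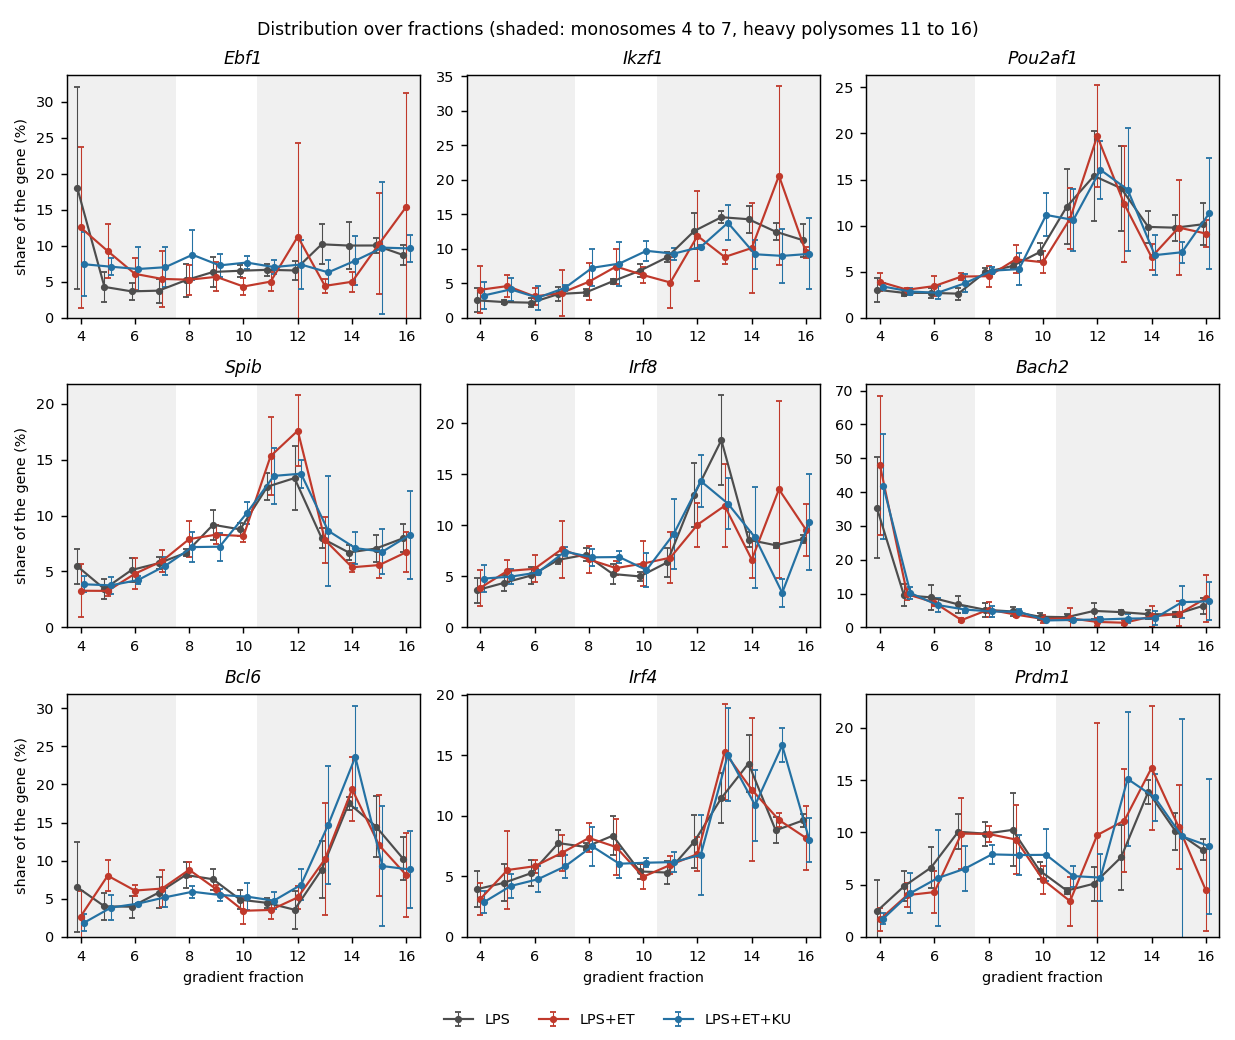
Share of the level of each member except Pax5 (fraction-scaled CPM, percent) in fractions 4 to 16, as means of the 4 gradients with SD for LPS, LPS+ET and LPS+ET+KU. Bach2 peaks in fraction 4 in all groups (35.4, 47.8 and 41.7%), whereas Pou2af1 and Spib peak in fraction 12 and Bcl6 in fraction 14.

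Of the other members, 7 peaked among heavy polysomes in each group. Ebf1 had its highest share in fraction 4 in LPS (18.01 ± 14.1%) and in fractions 16 and 15 in LPS+ET and with the inhibitor (15.4 ± 15.8% and 9.74 ± 9.15%), and Pax5 had too few counts for a profile. The Ebf1 share in fraction 4 of LPS rested on only 3, 14, 4 and 8 counts. Pou2af1 and Spib had their highest share in fraction 12 in all 3 groups (15.4, 19.7 and 16.0% for Pou2af1, 13.4, 17.6 and 13.7% for Spib), and Bcl6 in fraction 14 (17.5, 19.4 and 23.6%). Ikzf1 peaked in fraction 13 in LPS and LPS+ET+KU and in fraction 15 in LPS+ET, where the SD of 13.0 percentage points was large against the share of 20.6%. Irf4 peaked in fractions 14, 13 and 15, Prdm1 in 14, 14 and 13, and Irf8 in 13, 15 and 12 in LPS, LPS+ET and LPS+ET+KU. Neighbouring fractions mostly differed by less than the spread over gradients, so these positions are approximate.

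Whether the distribution over the gradient changed with treatment was tested on the heavy share (limma on its logit) and by the interaction of treatment with fraction (edgeR). In the second test the 13 libraries of a gradient were treated as independent, so its p-values leave out what these libraries share. A fit with a term for each gradient is given beside it. No member passed on the heavy share after etoposide (0 of 9; 0.312% of 8000 genes) or between the etoposide-treated groups (0 of 9; 0.0%). At an unadjusted p under 0.05 limma had 1645 and 685 genes in these comparisons. On simulated counts both tests recovered few 2-fold changes (4 to 8% and 2%), so a miss does not show an unchanged distribution.

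The smallest p among the members was that of Bcl6 with the inhibitor. Its heavy shares were 61.3, 50.0, 60.1 and 62.1% in LPS+ET and 64.8, 70.7, 67.8 and 68.8% in LPS+ET+KU, without overlap, and the logit differed by 0.41 ± 0.13 (unadjusted p = 0.0081, limma adjusted p = 0.39). Ikzf1 had 74.6, 62.5, 69.9 and 56.4% in LPS+ET and 64.3, 60.5, 65.1 and 53.0% in LPS+ET+KU, against 71.3 to 77.4% in LPS. The LPS+ET values overlapped those of LPS through LUL15 alone, while all LPS+ET+KU values were below them. Its change after etoposide did not pass (limma adjusted p = 0.26).

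The interaction test called no member in LPS+ET against LPS (0 of 9; 1.37% of 10360 genes). Bach2 had an edgeR adjusted p of 0.014, Ebf1 0.058 and Ikzf1 0.099. With a term for each gradient Bach2 (adjusted p = 7.1e-07) and Ebf1 (0.00096) passed, where 5.72% of all genes did. Bach2 also passed without LPS+ET of LUL16 (0.0017), and its adjusted p was 0.087 without libraries under 100000 counts and 0.076 over fractions 5 to 15. Between the etoposide-treated groups no member was called (0 of 9; 1.05%), and Irf8 had an adjusted p of 0.12, or 0.0011 with a term for each gradient, where 3.63% of genes passed.

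**Figure D5:**
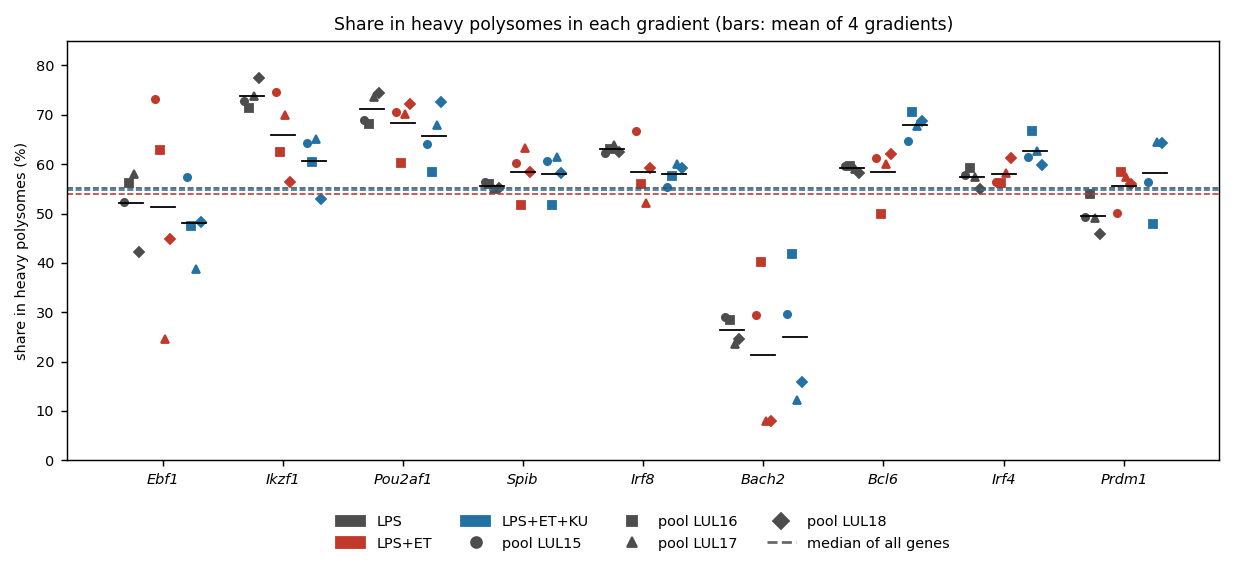
Share of the level of each member except Pax5 in heavy polysomes (fractions 11 to 16, percent), with 1 point per gradient and a bar at the group mean of LPS, LPS+ET and LPS+ET+KU. Bach2 is lowest with 23.6 to 29.05% in LPS and 7.9 to 40.1% in LPS+ET, and no member passed the limma test between treatments.

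The profile of each member over the 39 combinations of treatment and fraction was set against those of 7999 other genes by Pearson's r of the group means. The points share libraries, depth and the treatments themselves, so the values only describe likeness. Closest to Ikzf1 were Hdac9 (r = 0.918), Celf2 and Sh3kbp1, to Ebf1 Fchsd2 (0.853), Bcl11a and Gimap4, and to Irf8 Gimap4 (0.929), Aurka and Traf3ip3. Closest to Pou2af1 were Ywhae (0.961), Fam172a and Csk, and to Spib Plekho2 (0.911) and Tmem106b. Irf4 was most like Vav1 (0.856), Ptk2b and Hnrnpm, Prdm1 most like Kif18a (0.826), Zfp592 and Ceacam1, and Bcl6 most like Anapc4 (0.917), Actn4 and Fbxo38. The 3 genes closest to Bach2 were all mitochondrially encoded RNAs, mt-Rnr1 (0.913), mt-Tl1 (0.884) and mt-Rnr2 (0.870).

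Further genes of the same programmes were taken as lists. Of 29 other B lineage transcription factors tested, 12 fell and 3 rose in LPS+ET against LPS (12.7% of all genes called, 4.81% lower). Their median log2 change was -0.94, against 0.03 over all genes. Among those called, Bcl11a fell by 2.33 ± 0.16 (edgeR adjusted p = 8.7e-07), Mef2c by 1.89 ± 0.27 (0.00024) and Foxp1 by 1.87 ± 0.15 (3.5e-06). Id2, an inhibitor of E proteins, rose by 2.17 ± 0.20 (7.1e-06). Between the etoposide-treated groups 1 of the 29 was called, lower with the inhibitor (0.455% of all genes called). Against LPS 10 fell and 2 rose with the inhibitor (10.7% of all genes called, 4.42% lower).

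Of 20 genes activated by PAX5 or EBF1, 9 fell and none rose after etoposide (median -0.79), where 4.81% of all genes fell. Among those that fell were the inhibitory receptor Cd22 (-2.12 ± 0.40, edgeR adjusted p = 0.0017), Bank1 (-2.05 ± 0.42, 0.0033) and the IgE receptor Fcer2a (-1.74 ± 0.20, 5.4e-05). Against LPS+ET no gene of the list was called with the inhibitor (0 of 20, against 0.455% of all genes). Against LPS 7 of 20 fell, where 4.42% of all genes did.

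Of 20 plasma cell genes, 1 rose and 1 fell in LPS+ET against LPS (median -0.03). This share was no higher than the 12.7% called over all genes. Sdc1, the plasma cell surface proteoglycan CD138, rose by 3.42 ± 0.32, or 10.7-fold (edgeR adjusted p = 7.9e-06), and Tnfrsf13b, which encodes the receptor TACI, fell by 0.81 ± 0.17 (0.0036). With the inhibitor Sdc1 was the 1 gene of the list called against LPS+ET, where 0.455% of all genes were. It fell by 1.93 ± 0.29 (edgeR adjusted p = 0.0057). Against LPS Sdc1 remained higher, by 1.496 ± 0.30 (0.0035). Of 11 germinal centre genes, 3 rose and 1 fell after etoposide (median 0.55), where 12.7% of all genes were called. The death receptor Fas was among those that rose (3.02 ± 0.29, edgeR adjusted p = 1.1e-05). No germinal centre gene was called with the inhibitor against LPS+ET (0 of 11, against 0.455% of all genes), with Fas at -1.13 ± 0.27 (edgeR adjusted p = 0.044). Against LPS 2 of the 11 rose with the inhibitor, where 10.7% of all genes were called. Of the markers, 3 of 9 for B cells fell after etoposide, where 4.81% of all genes did. None of the 4 tested for T cells, 8 for myeloid cells, 1 for NK cells and 1 for erythroid cells was called in that comparison.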

How the data were processed

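PolyRibo 3′ RNA-seq, which counts polyadenylated mRNA ends, was made from 13 fractions (4 to 16) of 12 gradients and from fraction 17 of 1 LPS gradient (777 counts, not used in the sums). The deposited values are raw counts per gene and fraction library, which the authors made after removing duplicates by random bases, trimming A tracts and assigning ends to genes (GRCm38). The aligner of the 3′ ends is not given in the sources used here. The submitters' processing notes list TopHat2 2.0.12, HTSeq and DESeq2 1.6.3 without roles. The labels give a 10-30% sucrose gradient. Of the 157 columns, 79 matched a single sample and 78 only a treatment and fraction, with the code LUL15 to LUL18 in the column name, called pool, identifying the gradient.

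Counts were summed over fractions 4 to 16, 4 to 7, 8 to 10 and 11 to 16 and tested with edgeR 4.0.16 (TMM, filterByExpr, quasi-likelihood, treatment as the term) in R 4.3.3. The heavy share used limma 3.58.1 on the logit of the share (prior 0.5 CPM) where a gene averaged at least 100 counts in a gradient. P-values were adjusted over all genes and called below 0.01. Heavy polysomes against monosomes had the gradient as a block. TMM sets the typical gene to no change, so changes are relative. One end is counted per mRNA, so levels were not divided by length. Intervals and errors cover the spread between gradients. The tests were checked on simulated counts with a chosen spread. Of true 2-fold changes the level test recovered 68 to 70%, and heavy polysomes against monosomes 29.2 to 34.7%. The heavy share recovered 4 to 8% of them and the interaction 2%. Of 4-fold changes these tests recovered 100%, 97.9 to 100%, 86 to 88% and 70 to 78% in this order. Tables and figures used Python 3.11.15, numpy 2.4.6, pandas 2.3.3 and matplotlib 3.10.9.

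Gradients of the same pool deviated together (r of deviations from group means 0.353 to 0.894, above 0.1 in 12 of 12 pairs, against 8 of 36 pairs of different pools), and the pool was used as a replicate block in an alternative. Other alternatives were RLE scaling, DESeq2 1.42.0, no low-count filter, 8 gradients only, a threshold of 0.05, equal weight per fraction, other class limits, no libraries under 100000 counts, and leaving out each gradient. Named were the 10 members, from each list the at most 4 largest called changes after etoposide, and the 3 genes most like each member, of which some results are not reported here. The lists (other B lineage transcription factors, genes activated by PAX5 or EBF1, plasma cell genes, germinal centre genes, cell markers) and the members were chosen with earlier results of these data known.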

Additional observations from a re-analysis of the deposited data

Results flagged for a closer look

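Among 57 groups of 4 gradients examined (level, heavy share), 3 had 1 gradient far from the other 3 by Dixon's criterion, and chance gives about 1 in 20, so that this number is no more than chance gives. All 3 were gradients of pool LUL16. Pax5 stood at 2.66 CPM in LPS+ET+KU of LUL16, against 0.224 to 0.526 CPM in the other 3 gradients of that group. Ikzf1 stood at 129 CPM in LPS of LUL16, against 149 to 151 CPM. The heavy share of Bcl6 stood at 50.0% in LPS+ET of LUL16, against 60.1 to 62.1%.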

How the results depend on the processing

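Ebf1, Ikzf1 and Irf8 were called lower against LPS with and without the inhibitor under 14 of 14 alternatives each. Over 32 called values and 354 comparisons with an alternative, 294 kept the call, 60 lost it (43 of 200 on leaving out a gradient, 17 of 154 otherwise) and 0 changed direction. Of 546 comparisons for 43 values that were not called, 483 kept their direction and stayed uncalled, 37 gained a call and 26 changed direction. The cause of these moves was not tested.

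Members called for the ribosome-associated level went from 3 to 5 in LPS+ET against LPS at a threshold of 0.05, with DESeq2 and with the replicate block. They went from 0 to 1 in LPS+ET+KU against LPS+ET under the same 3 settings, and from 5 to 3 in LPS+ET+KU against LPS with equal weight per fraction (3 to 6 on leaving out a gradient). In monosomes they went from 2 to 6 with the replicate block in LPS+ET against LPS, and from 1 to 0 with only the 8 gradients compared in LPS+ET+KU against LPS+ET (0 to 1 on leaving out a gradient). Between the etoposide-treated groups, light polysomes gave 0 members, 1 with DESeq2 and 2 with the replicate block, and heavy polysomes 0 and 1 at a threshold of 0.05, with DESeq2 and with the replicate block. For heavy polysomes against monosomes, leaving out the gradient term took the count from 5 to 3 in LPS and from 6 to 2 in LPS+ET+KU, and leaving out a gradient gave 1 to 4 in LPS+ET and 2 to 5 in LPS+ET+KU. For the distribution over fractions the replicate block gave 2 in place of 0 in LPS+ET against LPS (0 to 1 on leaving out a gradient) and 1 in place of 0 in LPS+ET+KU against LPS+ET.

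Direction changed only for members without a call. In LPS+ET against LPS, Bach2 had -0.00103 with RLE, -0.012 with DESeq2, -0.0264 without the filter and -0.15 to 0.18 on leaving out a gradient. Its largest move there, to 0.64 with equal weight per fraction, kept the direction, as did that of Pax5 from -1.46 to -0.54 with the same weighting. Bcl6 had -0.00738, -0.0423, -0.16 and -0.15 with DESeq2, without the filter, with the replicate block and with equal weight, and -0.53 to 0.19 on leaving out a gradient, as Irf4 had -0.0107 to 0.22. Between the etoposide-treated groups, equal weight gave Ebf1 -0.0864, Pou2af1 0.0587 and Bach2 -0.30. There leaving out a gradient gave Ikzf1 -0.15 to 0.0691, Irf8 -0.0432 to 0.49, Pax5 -0.41 to 1.21, Pou2af1 -0.33 to 0.0592 and Spib -0.0454 to 0.14.

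Over all genes, those called for the level in LPS+ET against LPS were 1618, 3403 with the replicate block and 1042 with equal weight (782 higher and 260 lower, against 1005 and 613). Between the etoposide-treated groups they were 58, 412 with DESeq2, 811 with the replicate block, 18 with equal weight, 0 with 8 gradients and 19 to 172 on leaving out a gradient, and for the inhibitor against LPS 1361, 2263 with DESeq2, 3589 with the replicate block, 792 with equal weight (620 higher and 172 lower, against 797 and 564) and 755 to 1708 on leaving out a gradient. In LPS+ET against LPS the block took monosomes from 850 to 2195, light polysomes from 1055 to 2482 and heavy polysomes from 1101 to 2338 (DESeq2 1761), and between the etoposide-treated groups from 19 to 502, 29 to 531 and 65 to 372 (DESeq2 109, 204 and 279, and 1, 2 and 3 with 8 gradients). Without the gradient term heavy polysomes against monosomes went from 3486 to 2157 in LPS+ET and from 5398 to 2317 in LPS+ET+KU. The heavy share in LPS+ET against LPS had 25 genes, and 0 from counts as deposited, 4 at a mean of 20 or more counts and 6 with heavy polysomes as fractions 12 to 16. The distribution over fractions had 142 and 593 with the block, and 110 and 380 with the inhibitor.

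The LUL16 gradient of LPS+ET, with 4 libraries under 100000 counts, and the shallow fraction 4 libraries limit the profiles.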
